A study of Mus musculus with 12 samples.

Results

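The germline genes Dazl, Ddx4, Mael, Sycp3, Stk31, Tdrd1, Asz1, Mov10l1 and Tex14 were taken by symbol from a table of read counts that holds 24495 genes. All 9 symbols had a row. Of these, 8 were among the 15532 genes that passed the filter on low counts (at least 10 reads per library at the median depth in enough libraries), and Asz1 did not pass it and was not tested. The table holds 12 polyA RNA-seq libraries of CCE-Nanog-GFP mouse embryonic stem cells (mESCs), a line that carries a GFP reporter of Nanog and was sorted for GFP before use. The libraries come from 2 lines: shSC, which carries a scrambled control shRNA, and shCTSL, which carries an shRNA against the protease cathepsin L (CTSL). The labels write these as "scr" or "WT" and as "KD". In the paper the CTSL shRNA was in the lentiviral vector pLKO.1, and no vector is named for the scrambled control. Each line was sequenced undifferentiated (Day 0, grown with LIF) and as embryoid bodies (EBs) after 2 and 4 days without LIF and with all-trans retinoic acid (RA), with 2 libraries per group. The knockdown therefore rests on 1 shRNA line, and since the labels do not say how the 2 libraries of a group arose, p-values measure only the spread between them.

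The germline genes encode proteins that germ cells use and that most body cells keep silent. DAZL and DDX4 (also called VASA) are RNA-binding proteins of germ cells, MAEL, MOV10L1, TDRD1 and ASZ1 act in the piRNA pathway, in which small RNAs guide the silencing of transposons, and STK31 is a Tudor domain protein of the testis. SYCP3 builds the axis of meiotic chromosomes, and TEX14 holds open the bridges that join dividing germ cells. Promoters of such genes are often rich in CpG dinucleotides and methylated in somatic cells, and in mESCs several are held down by DNA methyltransferases and by a variant Polycomb complex that contains E2F6, MGA and MAX. RA has also been described as a signal for meiosis in the embryonic ovary, with Stra8 as its best-known target.

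The promoters of 4 of the genes are shown because they carry different combinations of 2 sequence motifs (both in Ddx4, Mael and Sycp3 and neither in Dazl). The fall from Day 2 to Day 4 in shSC, described further on, was measured in these 3 genes. It was also measured in Tex14, Mov10l1, Tdrd1 and Stk31, which hold 1 of the motifs. In shCTSL the change of Stk31 in that step was not called (log2 -0.29, edgeR adjusted p = 0.258). Asz1 holds neither motif and was not tested for change. That leaves Dazl as the only tested gene without one, which is too few for a comparison. A link between the motifs and the fall was not tested. Each promoter is the 250 bases before the RefSeq transcript start (build GRCm38.p6), written 5′ to 3′ on the strand of the gene, at chr17:50293621-50293870 for Dazl, chr13:112652311-112652560 for Ddx4 and chr1:166238745-166238994 for Mael (all on the minus strand) and at chr10:88459337-88459586 for Sycp3 (plus strand). Capitals mark the E-box CACGTG and the core GCGGGA of E2F sites, which reads TCCCGC on the other strand.
Dazl: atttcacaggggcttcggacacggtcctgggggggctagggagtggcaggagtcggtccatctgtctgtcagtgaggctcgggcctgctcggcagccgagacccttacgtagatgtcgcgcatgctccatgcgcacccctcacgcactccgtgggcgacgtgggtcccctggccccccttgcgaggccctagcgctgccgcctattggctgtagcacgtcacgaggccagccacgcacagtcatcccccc
Ddx4: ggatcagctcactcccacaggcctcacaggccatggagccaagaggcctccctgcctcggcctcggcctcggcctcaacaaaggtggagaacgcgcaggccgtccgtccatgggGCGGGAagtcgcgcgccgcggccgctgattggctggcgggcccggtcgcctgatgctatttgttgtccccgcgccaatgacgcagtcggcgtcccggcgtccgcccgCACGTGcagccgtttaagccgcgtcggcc
Mael: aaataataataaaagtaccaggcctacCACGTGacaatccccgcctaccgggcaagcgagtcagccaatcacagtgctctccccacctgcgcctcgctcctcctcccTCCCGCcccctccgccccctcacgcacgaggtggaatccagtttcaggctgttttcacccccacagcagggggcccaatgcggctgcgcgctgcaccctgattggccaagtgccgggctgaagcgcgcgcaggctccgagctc
Sycp3: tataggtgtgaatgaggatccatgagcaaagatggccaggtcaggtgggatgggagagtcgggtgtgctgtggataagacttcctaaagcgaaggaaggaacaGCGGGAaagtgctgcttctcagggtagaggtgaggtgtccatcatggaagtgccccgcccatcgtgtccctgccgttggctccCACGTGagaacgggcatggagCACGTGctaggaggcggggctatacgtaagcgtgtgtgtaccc
Both strands were searched, and no E-box overlapped a GCGGGA match in these windows. The E-box letters lay in a promoter window of 6 of the 9 genes (Ddx4, Mael, Mov10l1, Stk31, Sycp3 and Tdrd1), against 6.86% of all 27025 genes, each counted once if any window of the same length before a start of the gene held it. Counted by window, it was 8 of the 12 windows of these genes (Tdrd1 and Stk31 have more than 1) and 6.02% of all 32851. GCGGGA lay in those of 4 genes (Ddx4, Mael, Sycp3 and Tex14), against 18.8% of all genes, and both lay together in those of Ddx4, Mael and Sycp3, against 1.69%. The Dazl and Asz1 windows held neither. CpG dinucleotides numbered 31 in the Ddx4 window, 20 in Dazl, 18 in Mael and 12 in Sycp3, and the median over all promoters was 6. A match of letters is a description of the sequence and was not tested for binding.

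Library depth ran from 11171111 to 27155553 counted reads, and counting error for the 8 tested genes was that of 23 to 2195 reads per library. Ctsl, the targeted gene, stood at 137 to 147 normalized CPM (counts scaled to a common library size by TMM) in shSC Day 0 and at 37.5 to 39.2 in shCTSL Day 0, and its level was also lower in both shCTSL libraries than in both shSC libraries on Day 2 and Day 4. All 5 pluripotency markers fell in both lines by Day 2 and fell further by Day 4. The 2 shCTSL Day 2 libraries stood apart: their counts differed with a chi-square per degree of freedom of 135, against 2.73 to 10.3 between the 2 libraries of each other group, and ribosomal Rn45s took 3.43% of the reads in replicate 1 against 0.553% in replicate 2. Every value that involves shCTSL Day 2 was therefore also computed without either library. Results that this changed are given with the gene concerned or in the section on processing. Changes were called where the adjusted p was below 0.05 and the size reached 1.5-fold (edgeR quasi-likelihood test, Benjamini-Hochberg adjustment over all genes tested). Because these are bulk samples, a lower level cannot be told apart as fewer cells with the transcript or less transcript per cell.

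**Figure D1:**
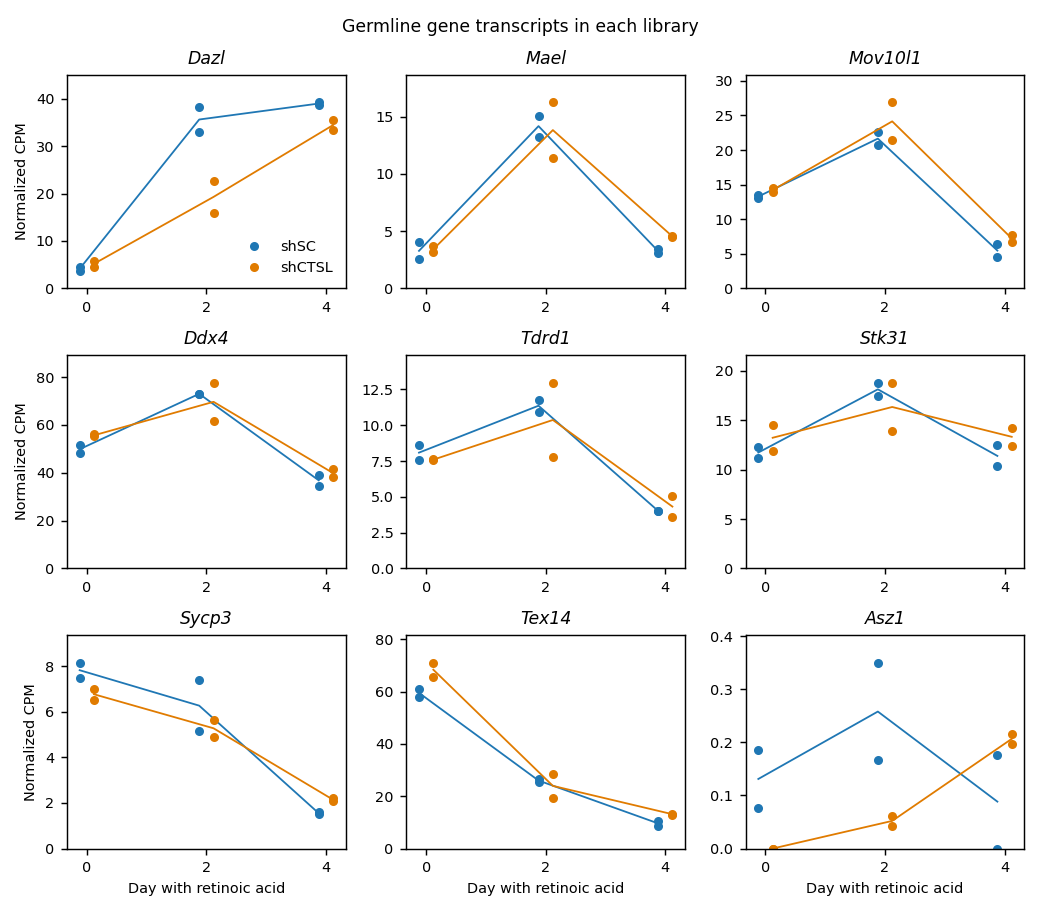
Normalized CPM (vertical axes from 0, a separate scale for each gene) of the 9 germline genes against the day with RA; points are single libraries, 2 per group, and lines join the group means of shSC (blue) and shCTSL (orange). Mael and Mov10l1 peak on Day 2 in both lines, Dazl climbs and stays high, Tex14 and Sycp3 decline, and Asz1 stays at or under 0.350 CPM.

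In undifferentiated cells the 9 genes covered a wide span of levels, compared here as normalized CPM per kilobase of exon (mean ± SD, n = 2). In shSC, Ddx4 was highest at 17.5 ± 0.843 and Tex14 next at 11.9 ± 0.453. Sycp3 followed at 6.19 ± 0.370, Stk31 at 3.63 ± 0.232 and Mov10l1 at 3.15 ± 0.0788. Mael at 2.12 ± 0.691, Tdrd1 at 1.49 ± 0.137 and Dazl at 1.37 ± 0.217 overlapped within 1 SD of their neighbour. Asz1 was lowest at 0.0463 ± 0.0274. The order in shCTSL Day 0 differed in 1 exchange of neighbours, where Dazl (1.72 ± 0.292) stood above Tdrd1 (1.40 ± 0.00325).

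By Day 4 this order had been rearranged. In shSC, Dazl (12.9 ± 0.112) had drawn level with Ddx4 (12.9 ± 1.17) on the CPM per kilobase scale, from the lowest place among the tested genes on Day 0. Stk31 (3.52 ± 0.465) came next, while Mael (2.11 ± 0.191), Tex14 (1.92 ± 0.297), Mov10l1 (1.29 ± 0.333) and Sycp3 (1.23 ± 0.0517) each overlapped a neighbour within 1 SD. Tdrd1 was the lowest tested gene at 0.739 ± 0.000100. In shCTSL the 2 leading genes on Day 4 were the same, Ddx4 at 13.99 ± 0.794 and Dazl at 11.4 ± 0.473.

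**Figure D2:**
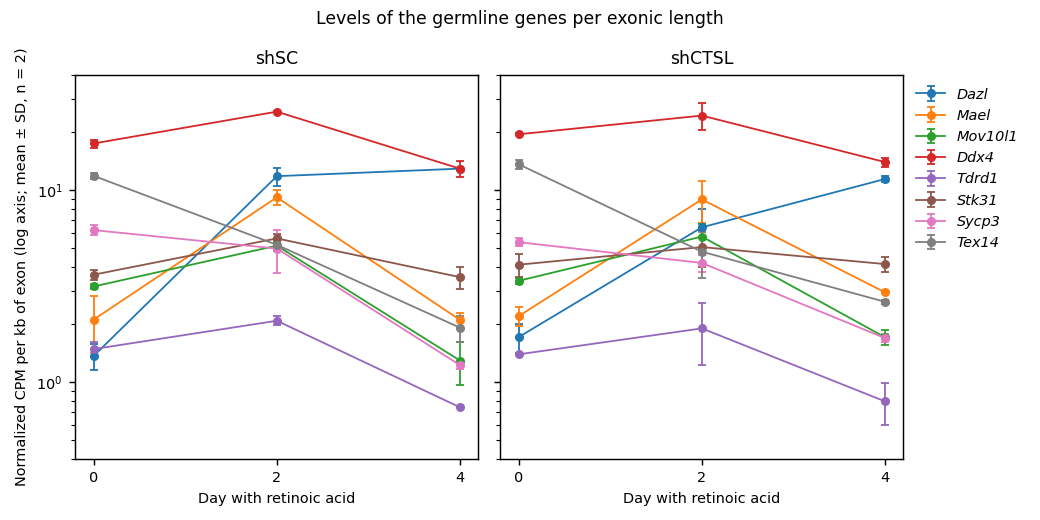
Normalized CPM per kilobase of exon (log axis) of the 8 tested germline genes on Day 0, 2 and 4 in shSC (left) and shCTSL (right); points are means and bars SDs of 2 libraries. Dazl rises from 1.37 to 12.9 in shSC and meets Ddx4 on Day 4, and Tex14 drops from 11.9 to 1.92.

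Dazl was the germline gene with the largest rise, and the only tested one whose level on Day 4 was above that of Day 0 by the call rule in either line. It lies on chromosome 17 (chr17:50418719-50432924, minus strand, build mm9). In shSC it stood at 3.66 and 4.59 normalized CPM on Day 0, 33.0 and 38.3 on Day 2, and 39.2 and 38.8 on Day 4. The Day 2 and Day 4 libraries lay far above those of Day 0 and close to each other. The increase was 8.58-fold by Day 2 (log2 3.10, SE 0.21, adjusted p = 9.46e-07) and 9.40-fold by Day 4 (log2 3.23, SE 0.21, adjusted p = 4.54e-07), and the step from Day 2 to Day 4 was not called (log2 0.13, adjusted p = 0.631).

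In shCTSL Dazl rose as well, with a lower level on Day 2. Its values were 4.55 and 5.79 normalized CPM on Day 0, 22.7 and 15.9 on Day 2, and 33.5 and 35.5 on Day 4. The Day 2 libraries sat between the other days without overlap. The change was 3.75-fold by Day 2 (log2 1.91, SE 0.21, adjusted p = 2.60e-05) and 6.72-fold by Day 4 (log2 2.75, SE 0.21, adjusted p = 1.42e-06). The further rise from Day 2 to Day 4 was called (log2 0.84, SE 0.18, adjusted p = 0.00653), but not when only the libraries compared were fitted (log2 0.83, adjusted p = 0.115) or with limma-voom and library weights (log2 0.89, adjusted p = 0.0867).

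Mael, whose product is a nuage protein of the piRNA pathway, rose and fell back within the 4 days. It lies at chr1:168131516-168168875 (mm9, minus strand). In shSC it stood at 2.52 and 4.03 normalized CPM on Day 0, 13.2 and 15.1 on Day 2, and 3.05 and 3.47 on Day 4. Both Day 2 libraries were above all libraries of the other days, and the Day 4 values lay inside the Day 0 range. The rise was 4.27-fold (log2 2.10, SE 0.24, adjusted p = 3.66e-05) and the fall from Day 2 to Day 4 4.37-fold (log2 -2.13, SE 0.24, adjusted p = 0.000135). In shCTSL it went from 3.13 and 3.69 to 16.2 and 11.4 and then to 4.55 and 4.53. The rise (log2 2.02, SE 0.25, adjusted p = 6.08e-05) and the fall (log2 -1.60, SE 0.23, adjusted p = 0.000682) were called there too. Day 4 against Day 0 was not called in shSC (log2 -0.03, adjusted p = 0.925) or in shCTSL (log2 0.42, adjusted p = 0.183).

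Mov10l1, which encodes the RNA helicase that starts piRNA production, made the same turn with a smaller rise and ended below where it began. It lies at chr15:88813339-88885582 (mm9, plus strand). The shSC libraries read 13.0 and 13.5 normalized CPM on Day 0, 22.6 and 20.7 on Day 2, and 4.46 and 6.45 on Day 4. The days did not overlap. The gene rose 1.63-fold by Day 2 (log2 0.71, SE 0.18, adjusted p = 0.00572) and then fell 4.02-fold (log2 -2.01, SE 0.19, adjusted p = 4.84e-05). In shCTSL the values were 13.9 and 14.5, then 26.9 and 21.4, then 7.69 and 6.74. The rise was 1.70-fold (log2 0.76, SE 0.18, adjusted p = 0.00397) and the fall 3.34-fold (log2 -1.74, SE 0.18, adjusted p = 0.000103). Against Day 0, Day 4 was lower in shSC (log2 -1.30, adjusted p = 0.000170) and in shCTSL (log2 -0.98, adjusted p = 0.00108).

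Ddx4, an RNA helicase and a standard marker of germ cells, was well expressed before RA and changed less. It lies at chr13:113388541-113442518 (mm9, minus strand). In shSC it measured 51.5 and 48.1 normalized CPM on Day 0, 72.9 and 73.1 on Day 2, and 39.2 and 34.5 on Day 4. The Day 2 libraries were the highest and the Day 4 libraries the lowest. The difference of Day 2 from Day 0 passed the test but stayed under 1.5-fold (1.47-fold, log2 0.55, SE 0.13, adjusted p = 0.00370), and it was over 1.5-fold, and so called, with DESeq2 (log2 0.60, adjusted p = 0.000265), with RLE scaling, with only the libraries compared, and with replicate 1 of either shSC Day 0 (adjusted p = 0.0178) or shCTSL Day 2 (adjusted p = 3.36e-06) removed, at log2 0.60 to 0.62. From Day 2 to Day 4 Ddx4 fell 1.98-fold (log2 -0.99, SE 0.13, adjusted p = 0.000355). In shCTSL the values were 55.3 and 56.0, then 61.6 and 77.7, then 38.3 and 41.5, and the fall after Day 2 was 1.75-fold (log2 -0.81, SE 0.13, adjusted p = 0.00127). That call was not made when only the 4 libraries compared were fitted (log2 -0.82, adjusted p = 0.0809).

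Tdrd1, a Tudor domain scaffold of the piRNA machinery, went the same way at a lower level. It lies at chr19:56900699-56944502 (mm9, plus strand). In shSC it read 8.62 and 7.56 normalized CPM on Day 0, 11.8 and 10.9 on Day 2, and 4.02 in both libraries on Day 4. The Day 2 libraries were higher than Day 0, although the difference was not called (log2 0.49, SE 0.24, adjusted p = 0.0928). The fall from Day 2 was 2.82-fold (log2 -1.498, SE 0.25, adjusted p = 0.00139). In shCTSL, where it went from 7.61 and 7.58 to 7.75 and 13.0 and then to 3.57 and 5.07, the Day 2 libraries were far apart. Day 4 was lower than Day 2 (log2 -1.27, SE 0.25, adjusted p = 0.00372) and than Day 0 (log2 -0.81, SE 0.26, adjusted p = 0.0184). The last of these calls was lost without either shCTSL Day 0 library or without shCTSL Day 4 replicate 1 (adjusted p = 0.0702, 0.0581 and 0.125), and the fall from Day 2 was not called when only the libraries compared were fitted (adjusted p = 0.0995). Without shCTSL Day 2 replicate 1 the rise by Day 2 was called in this line (log2 0.81, adjusted p = 0.000740).

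Stk31 changed little between Day 0 and Day 4 (log2 -0.04 in shSC and 0.02 in shCTSL). It encodes a protein with a kinase-like and a Tudor domain and lies at chr6:49345603-49419500 (mm9, plus strand). Its shSC values were 11.2 and 12.3 normalized CPM, then 18.8 and 17.5, then 12.5 and 10.3. Day 2 stood above the other days, which overlapped. The rise was 1.54-fold (log2 0.63, SE 0.18, adjusted p = 0.0119) and the fall 1.59-fold (log2 -0.67, SE 0.18, adjusted p = 0.0186). The rise was no longer called once replicate 1 of shSC Day 0 (adjusted p = 0.0762) or of shSC Day 2 (adjusted p = 0.0666) was removed, nor the fall without either shSC Day 2 library or without Day 4 replicate 2 (adjusted p = 0.111, 0.0613 and 0.124). In shCTSL the values of 11.9 and 14.5, 18.8 and 13.9, and 12.4 and 14.2 overlapped between days and none of its changes was called, with adjusted p from 0.172 to 0.940.

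Sycp3 and Tex14, the 2 members that act in the meiotic chromosome axis and in the germ cell bridge, declined. Sycp3 (chr10:87922314-87935981, mm9, plus strand) stood at 8.16 and 7.50 normalized CPM in shSC on Day 0, 5.15 and 7.40 on Day 2, and 1.5 and 1.6 on Day 4. The first step was within the spread between replicates by the test (log2 -0.32, SE 0.19, adjusted p = 0.162), while without shSC Day 2 replicate 2 it was called (log2 -0.60, adjusted p = 0.0367). The second was a 4.03-fold fall (log2 -2.01, SE 0.22, adjusted p = 0.000125). In shCTSL the values were 7.01 and 6.53, then 5.66 and 4.90, then 2.22 and 2.07, and the fall from Day 2 was 2.45-fold (log2 -1.29, SE 0.22, adjusted p = 0.00159), which limma-voom with library weights did not call (adjusted p = 0.186). Over the 4 days the gene fell 5.05-fold in shSC and 3.16-fold in shCTSL, both called.

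Exons of Sycp3 share 660 of their 1264 bases with exons of Chpt1 on the other strand, and no source used here states whether the counting used strand. Reads of the shared bases could therefore not be assigned by this table alone. Chpt1 changed the other way, with a rise in shSC by Day 2 (log2 1.22, SE 0.18, adjusted p = 0.000182) and by Day 4 (log2 1.36, SE 0.18, adjusted p = 7.06e-05). None of the other members shared exonic bases with another annotated gene.

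Tex14 (chr11:87218567-87369325, mm9, plus strand) fell at both steps. In shSC it measured 61.1 and 57.9 normalized CPM on Day 0, 26.4 and 25.6 on Day 2, and 8.57 and 10.7 on Day 4. In shCTSL it measured 65.7 and 71.1, then 19.4 and 28.6, then 12.9 and 13.4. No library overlapped another day in either line. The fall by Day 2 was 2.29-fold in shSC (log2 -1.19, SE 0.17, adjusted p = 0.000172) and 2.84-fold in shCTSL (log2 -1.51, SE 0.18, adjusted p = 3.72e-05). By Day 4 it was 6.22-fold in shSC (log2 -2.64, SE 0.19, adjusted p = 8.07e-07), the largest fall of the 8 tested genes, and 5.20-fold in shCTSL (log2 -2.38, SE 0.18, adjusted p = 1.43e-06). In shCTSL the second step (log2 -0.87, adjusted p = 0.00484) was under 1.5-fold without shCTSL Day 2 replicate 2 (log2 -0.56), and was not called with only the libraries compared (adjusted p = 0.112) or by limma-voom (adjusted p = 0.0555).

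Asz1, which encodes an ankyrin repeat protein of the piRNA pathway (chr6:18000964-18059061, mm9, minus strand), had 31 reads in all 12 libraries together. The counts were 1 and 3 in shSC Day 0, 5 and 8 on Day 2, and 4 and 0 on Day 4. In shCTSL they were 0 and 0, then 1 and 1, then 4 and 4. A count of 0 allows up to 3 reads, which over the 2 shCTSL Day 0 libraries is 0.131 CPM, and this limit covers counting error only. Differences between groups were not detectable at this depth.

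**Figure D3:**
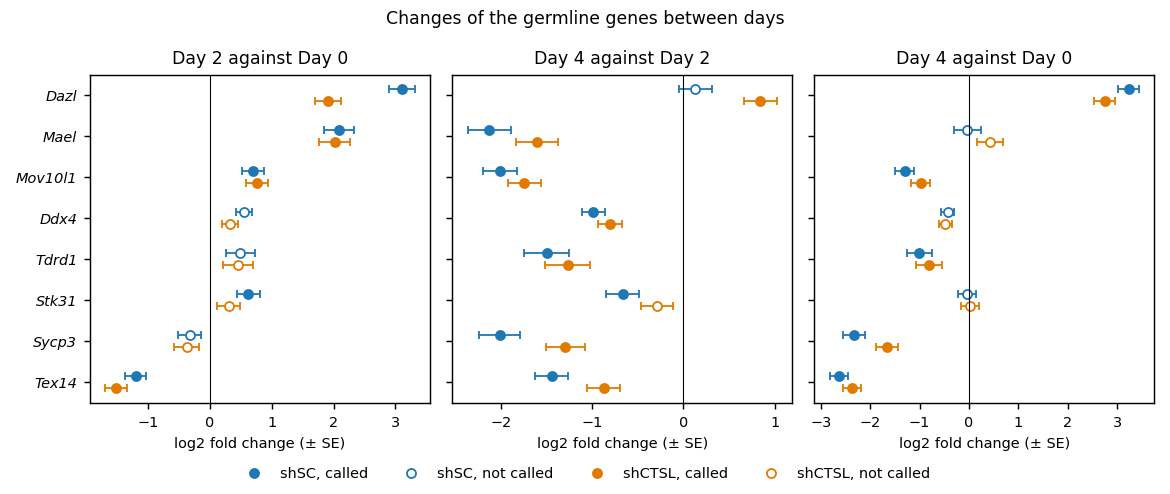
Fitted log2 fold changes (horizontal axes, bars are SEs) of the 8 tested germline genes between days, from 2 libraries per group, in shSC (blue) and shCTSL (orange); filled points were called and open points were not. From Day 2 to Day 4 every gene but Dazl lies left of 0 in both lines.

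Counted over the 8 tested genes, the first 2 days brought mixed changes and the next 2 days a shared decline. By Day 2 in shSC, 4 genes rose (Dazl, Mael, Mov10l1 and Stk31) and 1 fell (Tex14), beside 29.3% of all tested genes called higher and 25.3% called lower. The median log2 change was 0.59 over the 8 genes and 0.02 over all genes. In shCTSL, 3 rose (Dazl, Mael and Mov10l1) and Tex14 fell, beside 30.9% and 24.6% of all genes, with a median of 0.39 against 0.08.

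From Day 2 to Day 4, 7 of the 8 fell in shSC and the remaining gene, Dazl, was not called, beside 12.4% of all tested genes called lower and 11.4% called higher. The median log2 change was -1.47, against 0.02 over all genes. In shCTSL 6 fell and Dazl rose, beside 12.4% called lower and 11.0% called higher, with a median of -1.07 against -0.02. When only the libraries compared were fitted, 3 of the 8 were called in shCTSL, with no share of all genes to set beside that count. Limma-voom with library weights called 4. For all genes that limma-voom fit called 1255 in this comparison, against 3630.

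Over the whole course, Day 4 against Day 0, Dazl rose and 4 genes fell in each line: Sycp3, Tdrd1, Mov10l1 and Tex14. In shSC 32.1% of all tested genes were called higher and 28.7% lower, and in shCTSL 32.3% and 27.6%. The median log2 change of the 8 was -0.72 in shSC and -0.65 in shCTSL, against 0.03 and 0.06 over all genes. Comparisons of Day 2 and of Day 4 with Day 0 share the Day 0 libraries, and those with Day 2 share the Day 2 libraries.

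Between the lines, the differences in the germline genes were mostly small, and none of the 8 was called on any day. On Day 0 no member passed, beside 0.0386% of all tested genes called in either direction, and none had an unadjusted p under 0.05 or was called by DESeq2 or limma-voom. The log2 differences (shCTSL over shSC) ran from -0.20 for Sycp3 to 0.31 for Dazl. In that comparison 3 members were higher and 1 was lower in both shCTSL libraries, beside 22.7% and 28.6% of all tested genes. On Day 4, edgeR called 0 of 8, beside 0.0129% of all genes. An unadjusted p under 0.05 was found for 1 member, Tex14, beside 12.2% of all tested genes. Neither DESeq2 nor limma-voom called any. Of the 8 members, 4 were higher in both shCTSL libraries than in both shSC libraries and 1, Dazl, was lower in both (log2 -0.18), beside 30.0% of all tested genes higher and 31.5% lower without overlap. The 4 were Mael (log2 0.49, SE 0.25, adjusted p = 0.448), Sycp3 (log2 0.47, SE 0.25, adjusted p = 0.451), Tex14 (log2 0.46, SE 0.19, adjusted p = 0.382) and Mov10l1 (log2 0.42, SE 0.20, adjusted p = 0.425).

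Dazl on Day 2 was the largest difference between the lines. Its 2 shCTSL libraries, at 22.7 and 15.9 normalized CPM, were below the shSC libraries at 33.0 and 38.3. On that day 22.7% of all tested genes were lower in shCTSL without overlap, and 19.4% had an unadjusted p under 0.05. The difference was 1.85-fold (log2 -0.89, SE 0.18, unadjusted p = 0.000620, adjusted p = 0.184 by edgeR) and so was not called, beside 0.0644% of all tested genes on that day. DESeq2 called it (log2 -0.92, SE 0.20, adjusted p = 0.000962), beside 0.805% of all tested genes. Limma-voom did not (log2 -0.93, SE 0.29, adjusted p = 0.791), and it called 0% of all tested genes. Without a filter on low counts edgeR called it (log2 -0.91, adjusted p = 0.0262), with no share of all genes to set beside that call. With either shCTSL Day 2 library left out the difference was log2 -1.15 (without replicate 1) or -0.65 (without replicate 2). Only sizes are given for these fits, which leave 1 library in the group. These fits take the lone library to vary as the other groups do.

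The other 7 tested genes on Day 2 differed by log2 -0.25 to 0.15, with edgeR adjusted p of 0.446 or more. Among 3 mesoderm markers, T, Kdr and Hand1, the summed level was 95.2 to 98.0 normalized CPM in shSC Day 2 and 26.2 to 53.9 in shCTSL Day 2, and nearly all of it was Kdr, a receptor of blood vessel precursors, at 93.7 and 97.1 against 25.3 and 52.5 (log2 -1.29, SE 0.26, edgeR adjusted p = 0.184). T and Hand1 were under 1 CPM in all 4 libraries, and their values overlapped between the lines. Within shCTSL Day 2 the library with less Kdr (replicate 1) was the one with more Dazl. The part of Kdr-expressing cells in the Dazl difference was not tested.

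**Figure D4:**
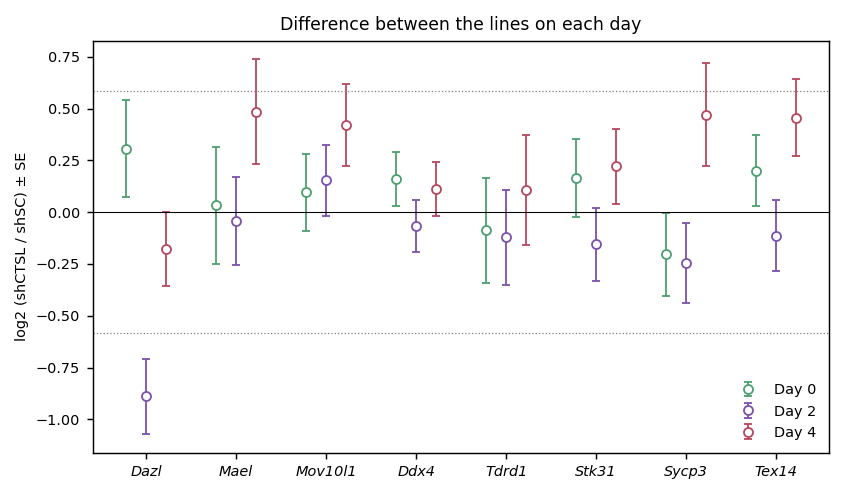
Log2 difference of shCTSL over shSC (vertical axis, bars are SEs, 2 libraries per group) for the 8 tested germline genes on Day 0, 2 and 4; dotted lines mark 1.5-fold. Dazl on Day 2 lies at -0.89, and no other point lies outside the dotted lines.

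The change over time was also compared between the lines. For Day 2 against Day 0 the Dazl change was smaller in shCTSL by log2 1.20 (difference -1.20, SE 0.30, unadjusted p = 0.00237, adjusted p = 0.390). No member was called, beside 0% of all genes by edgeR (1716 had an unadjusted p under 0.05, DESeq2 called 24 and limma-voom 2), and Dazl was the 1 member with an unadjusted p under 0.05. DESeq2 and limma-voom called none. Without shCTSL Day 2 replicate 1 the Dazl difference was log2 -1.46, and without replicate 2 it was log2 -0.94. Only sizes are given for these fits, which leave 1 library in that group. For Day 4 against Day 0 no member was called, beside 0.00644% of all genes, and none had an unadjusted p under 0.05 or was called by DESeq2 or limma-voom. The largest value there was that of Sycp3 (log2 0.68, SE 0.32, adjusted p = 0.754). Averaged over the 3 days, no member differed between the lines by edgeR, DESeq2 or limma-voom, beside 0.270% of all genes, and none had an unadjusted p under 0.05. The averages ran from log2 -0.25 for Dazl (SE 0.12, adjusted p = 0.223) to 0.22 for Mov10l1 (SE 0.11, adjusted p = 0.237).

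Other genes of the same pathways were measured too. Of 21 further piRNA pathway and nuage genes, 19 were tested, and in shSC by Day 2 there were 5 higher and 5 lower, near the shares of all tested genes (29.3% and 25.3%). The transcripts of Tdrd9 (log2 2.88), an RNA helicase, Tdrd7 (log2 2.79), a Tudor protein of germ granules, and Gpat2 (log2 2.41) rose with that of Mael. Those of Tdrd12 (log2 -2.68), Morc1 (log2 -2.31) and Piwil2 (log2 -0.63), a Piwi protein that carries piRNAs, fell with that of Tex14. Tdrd9 had 5 and 3 reads in the shSC Day 0 libraries, so the size of its rise rests on few reads. From Day 2 to Day 4, 9 of the 19 fell and the other 10 were not called, with a median log2 change of -0.94, beside 12.4% of all tested genes called lower. Piwil2 (adjusted p = 6.14e-05) and Rnf17 were among those that fell.

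Of 27 further meiosis genes 23 were tested, and 9 were higher and 5 lower in shSC by Day 2, beside 29.3% and 25.3% of all tested genes. Stra8, the RA target that licenses entry into meiosis, rose from a mean of 1.27 to 584 normalized CPM (log2 8.84, SE 0.32) and Rec8, a meiotic cohesin subunit, from 16.3 to 261 (SE of the log2 change 0.18, adjusted p = 8.73e-08). Both were still high on Day 4, at 403 and 182. Between Day 2 and Day 4, 12 of the 23 fell, 1 rose and 10 were not called, beside 12.4% of all tested genes called lower and 11.4% higher. Among those that fell were Sycp2 (log2 -2.54), the partner of SYCP3 in the chromosome axis, Dmc1 (log2 -2.63), the meiotic recombinase, and Mei4 (log2 -1.75), needed for DNA breaks. The gene that rose was Tex15 (log2 1.17).

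All 11 listed genes of primordial germ cells, the embryonic founders of the germline, were tested, and by Day 2 in shSC 2 rose and 6 fell, beside 29.3% and 25.3% of all tested genes. The risers were Prdm1 (log2 2.32), a repressor that specifies these cells and is also used in other embryonic tissues, and Kit (log2 1.54), a receptor that germ cells share with blood and pigment cells. Prdm14 (log2 -2.38) and Dppa4 (log2 -1.15), both also expressed in pluripotent cells, were among those that fell. In the step from Day 2 to Day 4, 6 of 11 fell and the other 5 were not called, with a median log2 change of -0.96, beside 12.4% of all tested genes called lower.

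Of 21 factors known to keep germline promoters silent, 11 were lower in shSC by Day 2 and the other 10 were not called, with a median log2 change of -0.86, beside 25.3% of all tested genes called lower and 29.3% higher. Dnmt3l (log2 -4.43) and Dnmt3b (log2 -2.10), which act in placing DNA methylation, and L3mbtl2 (log2 -1.81) and Mga (log2 -1.12), of the variant Polycomb complex, were among those that fell. E2f6 gave log2 0.04 (SE 0.11). From Day 2 to Day 4 in shSC, 18 of the 21 were not called, 2 fell and 1 rose. Of all tested genes, 12.4% were called lower and 11.4% higher. The riser was the DNA methyltransferase gene Dnmt3a (log2 0.77, SE 0.12, adjusted p = 0.00104). A part of these factors in the changes of the germline genes was not tested. Between the lines, edgeR called 0 of the 74 tested genes in these 4 lists on each of the 3 days, with an unadjusted p under 0.05 in 14 on Day 0 and in 11 on each of Day 2 and Day 4. Over all tested genes that share was 7.26%, 19.4% and 12.2%. DESeq2 called 1, 2 and 1 of them on Day 0, 2 and 4, beside 0.309%, 0.805% and 0.850% of all tested genes. Limma-voom called 5, 0 and 3, beside 1.64%, 0% and 4.65%. On Day 4 both of these called Meioc, a regulator of the meiotic programme, higher in shCTSL (log2 0.84 by DESeq2, adjusted p = 0.00226). Limma-voom also called Tex15 (log2 -0.93, adjusted p = 0.00336) and Tfap2c (log2 -0.61, adjusted p = 0.0137), both lower in shCTSL.

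**Figure D5:**
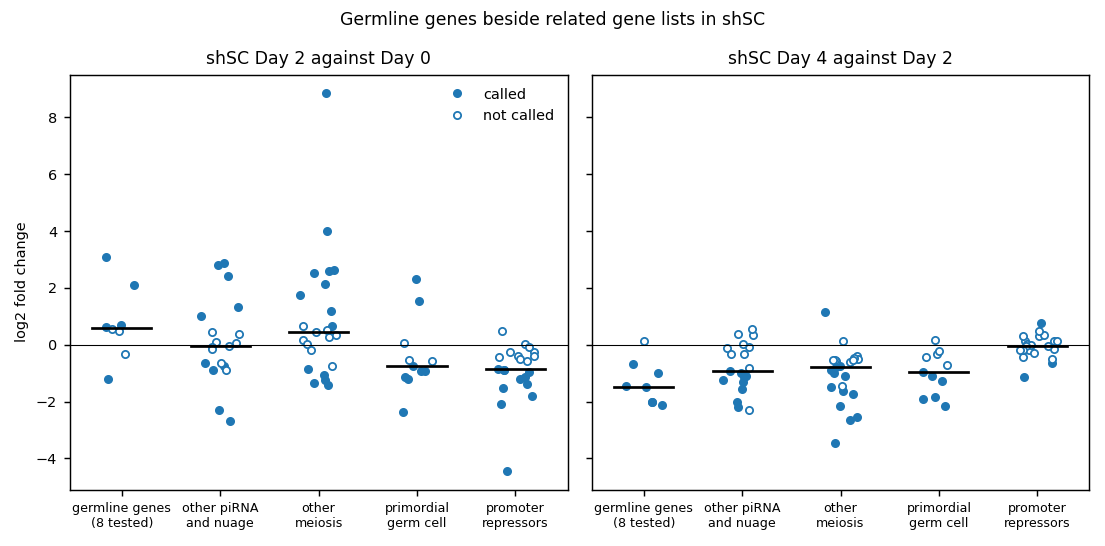
Log2 fold changes in shSC (vertical axis, Day 2 over Day 0 on the left and Day 4 over Day 2 on the right) of the 8 tested germline genes and of 4 lists of related genes; each point is a gene, filled where called, and black lines are medians. On the right the medians of the germline, piRNA, meiosis and primordial germ cell genes lie between -1.47 and -0.80, and that of the repressors at -0.05.

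Cells that could bring in germline transcripts were looked for by their markers. Of 5 spermatid markers (Prm1, Prm2, Tnp1, Tnp2 and Acrv1), 0 passed the filter, and their summed level was at most 0.148 normalized CPM in any library. Of 7 oocyte markers 2 passed, with a summed level of 1.06 to 3.66 CPM. Markers of the 2-cell-like state, a rare state of mESC cultures in which some germline genes are also on, rose by Day 2. In both lines 9 of 9 tested were called higher, beside 29.3% of all tested genes in shSC and 30.9% in shCTSL. Their sum was 0.686 to 0.991 CPM in shSC Day 0, 74.4 to 77.4 on Day 2 and 46.8 to 49.1 on Day 4. In shCTSL the sums were 0.522 to 0.737, then 44.1 to 75.8, then 68.5 to 85.9. Their part in the germline values was not tested.

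The 8 tested genes did not share a single profile. Over the 12 libraries the log2 CPM of Ddx4 followed that of Tdrd1 (Pearson r = 0.956) and Mov10l1 (r = 0.911), and Sycp3 followed Tex14 (r = 0.890), while Dazl ran against Tex14 (r = -0.908). Among all genes tested, Emcn (r = 0.993), Grap (r = 0.991) and Igf1 (r = 0.985) were most like Dazl, Unc93b1, Pgam2 and Pacsin1 most like Mael, and Adad2 (r = 0.987), another gene of male germ cells, most like Mov10l1. For Sycp3 the closest was Slc5a4b (r = 0.992), for Tex14 Slc52a3 (r = 0.993) and for Stk31 Mbip (r = 0.932). The points are libraries of the same 6 groups and share their days, so these values describe the profiles and carry no test.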

How the data were processed

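RNA was read with a directional polyA kit. Per the labels and the submitters' processing notes, the authors aligned with STAR 2.3.0e to mm9, and the deposited values are raw read counts per gene, for which the notes name featureCounts 1.6.2. No source used here states its strand setting. Depth per library was 11171111 to 27155553 counts.

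From these counts, genes were filtered with filterByExpr (minimum count 10), scaled by TMM and tested with the quasi-likelihood F test of edgeR 4.0.16 (R 4.3.3) in 1 model of the 12 libraries with a mean per group and 6 residual degrees of freedom. SEs were taken from the F statistic. Calls needed a Benjamini-Hochberg adjusted p under 0.05 and a 1.5-fold change. Alternatives were DESeq2 1.42.0, limma 3.58.1 (voom with library weights), RLE scaling, other filters, a log2 cutoff of 1.5, a replicate block, only the libraries compared, and each library left out. Scripts were tested on simulated data. Exonic lengths came from GENCODE M1 (mm9), promoters from RefSeq (GRCm38.p6), for which all 9 symbols matched. The genes and lists were chosen with earlier results of these data known, and all 9 genes are named. Lists were chosen by function, not by change. Spocd1 and Zscan4e had no row under these symbols.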

Additional observations from a re-analysis of the deposited data

How the results depend on the processing

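Of the 12 counts of members called, those for Day 2 against Day 0 in shCTSL, the lines on Day 0 and Day 4, their mean over days and the Day 4 interaction stayed within 1.5 times of the reported count under every alternative run. A log2 cutoff of 1.5 gave 2 of 8 in shSC for Day 2 against Day 0, 3 for Day 4 against Day 0 and 3 for Day 4 against Day 2, and in shCTSL 3 for Day 4 against Day 0 and 2 for Day 4 against Day 2. In that last comparison, fitting only the libraries compared gave 3 and limma-voom 4. For the lines on Day 2, DESeq2 and the fit without a filter gave 1 in place of 0, and leaving out single libraries gave 0 to 1. For the difference between the lines in Day 2 against Day 0 leaving out single libraries gave 0 to 2. Counts above 0 came from leaving out either shCTSL Day 2 library, which leaves 1 library in that group. No share of all genes stands beside the counts under the log2 cutoff, without the filter or from fewer libraries. They do not show whether the members changed apart from all genes.

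Values near 0 changed sign. Day 4 against Day 0 in shSC for Mael (log2 -0.03) was 0.016 with RLE scaling and 0.017 with DESeq2, and -0.32 to 0.38 with single libraries left out. For Stk31 (log2 -0.04) the same fits gave 0.0077, 0.0088 and -0.18 to 0.085, and in shCTSL (log2 0.02) -0.13 to 0.16. For Mov10l1 the lines on Day 2 (log2 0.15) gave -0.010 to 0.31 and the difference in Day 2 against Day 0 (log2 0.06) -0.11 to 0.22. The cause was not tested. RLE scaling or DESeq2 moved the median of all genes by at most 0.05 on the log2 scale.

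Without both shCTSL Day 2 libraries, 6, 5 and 7 of the 8 genes were called in shSC for Day 2 against Day 0, Day 4 against Day 0 and Day 4 against Day 2. No share of all genes stands beside these counts either. Counts of all genes called between the lines depended on the tool: 6, 10 and 2 on Day 0, 2 and 4 by edgeR, 48, 125 and 132 by DESeq2, and 254, 0 and 723 by limma-voom. With the replicate block the counts of members called in the 6 comparisons of days were 5, 5 and 7 in shSC and 4, 5 and 7 in shCTSL, and no call of a member changed. Same-numbered libraries of 2 groups had deviations that correlated from -0.36 to 0.16 over the 15 pairs of groups, over 0.1 in 1 pair, so the numbers were not taken as a pairing. With 2 libraries per group, small differences are not resolved.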

Other observations

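Some genes named for the gonad were also measured beside the germline genes. Of 5 markers of gonad somatic cells 4 were tested, and in shSC by Day 2 Dmrt1, a testis determination factor that germ cells use too, rose (log2 1.87, SE 0.15, edgeR adjusted p = 2.64e-06), as did Foxl2, the factor of granulosa cells (log2 3.86, SE 0.39, edgeR adjusted p = 1.37e-05). The other 2 tested were not called, beside 29.3% of all tested genes called higher and 25.3% called lower. Amh went from a mean of 0.567 to 0.303 normalized CPM and Star from 14.1 to 19.4. Foxl2 stayed low, at a mean of 2.08 normalized CPM on Day 2, while Dmrt1 reached 47.6. Zp3, of the oocyte coat, fell by Day 4 (log2 -3.73, SE 0.52, edgeR adjusted p = 0.000108) from a mean of 2.93 to 0.215 CPM. The other tested oocyte marker, Gdf9, a growth factor of oocytes, rose by Day 4 from a mean of 0.0691 to 0.751 CPM (log2 3.26, SE 0.71, edgeR adjusted p = 0.00216). Its Day 0 mean lay under the 0.186 and 0.229 CPM that 3 reads make in those libraries, so the size of the rise rests on few reads. Of the 2 tested, 1 rose and 1 fell.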
